A study of Mus musculus with 4 samples.

Results

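The sites described here are distal DNase-accessible sites that hold an unusually large number of footprints, in naive resting CD8-positive alpha-beta T cells of the mouse. Peaks of the longer peak list of each library were merged where they overlapped by 1 bp. A site was kept when it lay on chromosomes 1 to 19, was called in at least 3 of 4 libraries, was under 1000 bp wide and lay over 1 kb from every transcript start of GENCODE mouse release 21. It was then a member when it overlapped 8 or more footprints in at least 2 of the 4 footprint lists. The rule found 126 members among 21535 distal sites and 84292 merged sites. The footprint counts chose the members, so those counts are given as a description, with no test. All 4 libraries were DNase-seq of cells from female B6CASTF1/J mice, the F1 hybrid of C57BL/6J and CAST/EiJ, aged 2 months, with no treatment named. They are labelled biological replicates 1 to 4 and carry the same donor entry, so p-values measure only the spread between these libraries, which may be technical.

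DNase I cuts DNA where chromatin is open, and a protein bound within an open site can shield the bases it covers. A footprint is such a short stretch of few cuts flanked by many. Factors differ in the footprint they leave: CTCF, the zinc finger protein that anchors chromatin loops, stays bound for long and shields a long stretch, whereas many factors bind briefly and leave weak marks. SP factors bind GC-rich boxes and NRF1 binds a CpG-containing palindrome, both common in CpG island promoters. RUNX, ETS and TCF7/LEF1 factors are the main sequence-specific regulators of T cell enhancers. A caller can find a footprint only where cuts are dense enough, and the DNase I enzyme has cutting preferences of its own.

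The libraries were unequal. Their longer lists held 69413, 70552, 51121 and 20647 peaks and their footprint lists 170815, 149082, 137861 and 26149 footprints in replicates 1 to 4. Low peak heights were whole multiples of a step within 0.05 of a step in 100% of the 60 lowest distinct values per library. The reciprocal of that step, which orders the depth of libraries whose heights are scaled to depth, was 0.579, 0.842 and 0.224 times that of replicate 1 in replicates 2 to 4. Promoter peaks were called at 6, 6, 5 and 3 of 6 T cell genes (Cd3d, Cd3e, Cd3g, Lck, Cd8a and Cd8b1) in replicates 1 to 4. Cd8a had no promoter peak in replicates 3 and 4. The B cell gene Cd79a had one in replicates 3 and 4 and none in replicates 1 and 2, and B cell genes were called at 2, 1, 3 and 2 of 4. Promoter height of the helper lineage gene Zbtb7b, as a multiple of a library's median over sites called in every library, was 0.249, 0.355, 0.741 and 1.12, while Cd4 had none. The B cell gene Pax5 had a promoter peak in every library. Of the 3 myeloid genes Spi1, Csf1r and Lyz2, promoters were called at 2, 2, 2 and 0. Replicates 3 and 4 thus stood apart at Cd8a, Cd79a and Zbtb7b, but not in the counts of B cell and myeloid genes. The main values are also given from replicates 1 and 2 only.

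Sequences of 6 members and 2 comparison sites show what a site with many footprints looks like beside one with few. They are reference sequence (GRCm38, C57BL/6J, plus strand, 5′ to 3′, at most 300 bases around the middle of the site), so CAST alleles are not shown. Capitals mark bases under a footprint in at least 2 libraries. The first 5 members are among the 7 of the 10 with most footprints whose shown window meets no annotated exon. The other two of those 7, nearest Ptma and Smchd1, have 133 and 18 bases in capitals in their windows and are left out to limit the number of sequences, a choice made after their values were seen. Bach2 is the member nearest a gene of the naive T cell list. The comparison sites, nearest Hoxb8 and Pdlim7, hold at most 2 footprints in every library, and were chosen after their values were seen. Hoxb8 was paired on peak height with the D17Wsu92e member. Pdlim7 was paired with a member that is not printed, whose nearest protein-coding start is that of Dct.
Member nearest Mrpl58, chr11:115413421-115413720: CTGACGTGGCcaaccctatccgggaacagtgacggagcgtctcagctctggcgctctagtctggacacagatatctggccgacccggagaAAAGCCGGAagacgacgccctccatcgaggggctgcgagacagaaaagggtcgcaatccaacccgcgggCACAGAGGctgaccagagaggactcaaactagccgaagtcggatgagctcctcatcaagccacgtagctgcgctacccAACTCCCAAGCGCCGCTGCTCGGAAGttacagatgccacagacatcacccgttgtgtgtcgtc
Member nearest Anp32e, chr3:95950951-95951250: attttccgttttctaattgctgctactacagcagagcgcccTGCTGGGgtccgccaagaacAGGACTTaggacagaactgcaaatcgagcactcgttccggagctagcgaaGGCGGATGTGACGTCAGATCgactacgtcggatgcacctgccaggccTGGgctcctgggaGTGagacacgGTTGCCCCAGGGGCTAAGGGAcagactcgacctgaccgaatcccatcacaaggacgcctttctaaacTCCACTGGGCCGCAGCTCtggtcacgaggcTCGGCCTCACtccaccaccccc
Member nearest Sin3a, chr9:57073431-57073730: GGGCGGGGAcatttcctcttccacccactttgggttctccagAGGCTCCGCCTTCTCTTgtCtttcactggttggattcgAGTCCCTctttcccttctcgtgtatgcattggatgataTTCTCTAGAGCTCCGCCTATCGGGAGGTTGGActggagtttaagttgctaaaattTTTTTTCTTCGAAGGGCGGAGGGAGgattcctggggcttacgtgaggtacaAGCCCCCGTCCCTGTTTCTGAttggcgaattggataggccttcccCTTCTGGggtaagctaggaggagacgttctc
Member nearest Rps6ka1, chr4:133910731-133911030: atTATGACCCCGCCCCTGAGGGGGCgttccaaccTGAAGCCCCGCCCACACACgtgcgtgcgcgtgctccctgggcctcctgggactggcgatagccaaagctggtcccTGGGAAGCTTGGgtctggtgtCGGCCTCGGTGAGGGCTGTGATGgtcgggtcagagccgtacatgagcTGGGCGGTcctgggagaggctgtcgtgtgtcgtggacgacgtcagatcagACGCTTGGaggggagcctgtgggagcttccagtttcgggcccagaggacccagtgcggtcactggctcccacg
Member nearest D17Wsu92e, chr17:27826171-27826470: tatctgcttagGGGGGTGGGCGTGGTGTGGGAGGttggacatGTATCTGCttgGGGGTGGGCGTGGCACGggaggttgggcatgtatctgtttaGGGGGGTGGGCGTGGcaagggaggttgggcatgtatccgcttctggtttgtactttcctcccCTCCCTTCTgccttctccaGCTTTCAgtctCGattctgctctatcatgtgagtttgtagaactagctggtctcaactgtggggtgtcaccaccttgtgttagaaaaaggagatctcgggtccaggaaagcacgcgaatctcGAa
Member nearest Bach2, chr4:32164131-32164430: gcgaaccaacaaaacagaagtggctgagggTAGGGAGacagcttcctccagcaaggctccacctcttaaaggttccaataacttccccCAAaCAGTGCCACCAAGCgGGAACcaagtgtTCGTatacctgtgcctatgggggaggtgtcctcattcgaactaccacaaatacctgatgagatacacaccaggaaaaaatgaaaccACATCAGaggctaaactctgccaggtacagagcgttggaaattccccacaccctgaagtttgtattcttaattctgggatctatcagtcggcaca
Comparison site nearest Hoxb8, chr11:96278861-96279060: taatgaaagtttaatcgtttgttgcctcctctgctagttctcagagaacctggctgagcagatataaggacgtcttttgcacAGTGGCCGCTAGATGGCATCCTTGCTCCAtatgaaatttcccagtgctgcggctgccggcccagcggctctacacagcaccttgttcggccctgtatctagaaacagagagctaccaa
Comparison site nearest Pdlim7, chr13:55517061-55517220: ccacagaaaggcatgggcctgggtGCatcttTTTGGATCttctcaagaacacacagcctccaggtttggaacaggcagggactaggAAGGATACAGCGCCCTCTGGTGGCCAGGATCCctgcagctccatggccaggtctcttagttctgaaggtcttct

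The capitals come as 4 to 8 runs in each of the 6 members printed, the longest of 32 bases, and as 1 run in the Hoxb8 site and 3 in the Pdlim7 site, with a longest run of 29 and 32 bases. The windows are not all alike: the member at Runx3 has no base in capitals, and of 4 further comparison sites read, that at Tac4 has none while those at Aldh9a1 and Prss30 have 2 runs of 20 bases or more. The printed sequences are examples and not a test. The site upstream of Rps6ka1, which encodes a growth-signalling kinase, carries the SP word CCCCGCCC 2 times, at bases 8 and 40 of the shown sequence, both wholly in capitals. Beside Anp32e, which encodes a histone chaperone, the cyclic AMP response element TGACGTCA lies at base 120 and is wholly in capitals. The first 8 bases shown of the intronic site of Sin3a, the scaffold of a histone deacetylase complex, are the SP word on the other strand, GGGCGGGG, in capitals. Upstream of D17Wsu92e the word GGGGGTGGGCGTGG occurs 3 times, from bases 12, 53 and 96, and 41 of its 42 bases are capitals. The single CTCF match among the printed sequences, GCCCTCTGGTGG at base 98 of the Pdlim7 site, is wholly in capitals. A match is a description of the letters and does not show which protein was bound.

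At the 10 members with most footprints and at the Bach2 member, replicates 1 to 3 were all at or over 8 footprints and replicate 4 was lowest at every site. The site with most lies in intergenic sequence at chr4:133813201-133813920, 2500 bp upstream of the start of Gm12974 and 47010 bp downstream of a start of Rps6ka1, and held 14, 13, 15 and 8 footprints in replicates 1 to 4. It was the only member that reached 8 in all 4 libraries. A second member starts 80 bp beyond its end. The site nearest Zfp869, a zinc finger gene, at chr8:69716401-69717220 held 15, 13, 12 and 6 footprints. The site nearest Mrpl58, a mitochondrial ribosome gene, at chr11:115413261-115413880 held 13, 9, 16 and 5. At Anp32e (chr3:95950801-95951400) the counts were 13, 13, 13 and 3: the deeper libraries gave equal counts there. At Sin3a (chr9:57073301-57073860, 1261 bp downstream of the nearest GENCODE start, with a RefSeq start of Sin3a inside) they were 15, 10, 13 and 3. At chr1:86487321-86487800, where the nearest protein-coding start is that of Ptma, the prothymosin alpha gene, they were 13, 14, 11 and 3. This site was also among the tallest of the 10, with relative heights of 3.93, 3.23, 4.58 and 3.47. Relative height here is that same multiple of the library's median.

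The site nearest Kcnn1, which encodes a calcium-activated potassium channel, held 11, 9, 12 and 7 footprints (chr8:70865501-70865960). The site 22824 bp upstream of Rps6ka1 held 12, 9, 12 and 5. The D17Wsu92e site (chr17:27826061-27826580) held 12, 10, 15 and 0, although replicate 4 had a peak there with a relative height of 1.14. Its comparison partner at Hoxb8 held 2, 2, 2 and 1 footprints at a mean relative height of 1.06, against 1.16 at D17Wsu92e. The last of the 10, whose nearest protein-coding start is that of Smchd1, a chromatin protein gene of X inactivation, held 14, 8, 12 and 3 footprints (chr17:71485721-71486520). It was the lowest of the 10 in height, at a mean relative height of 0.697. The plot of the 10 sites shows replicates 1 to 3 interleaved and replicate 4 to the left.

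**Figure D1:**
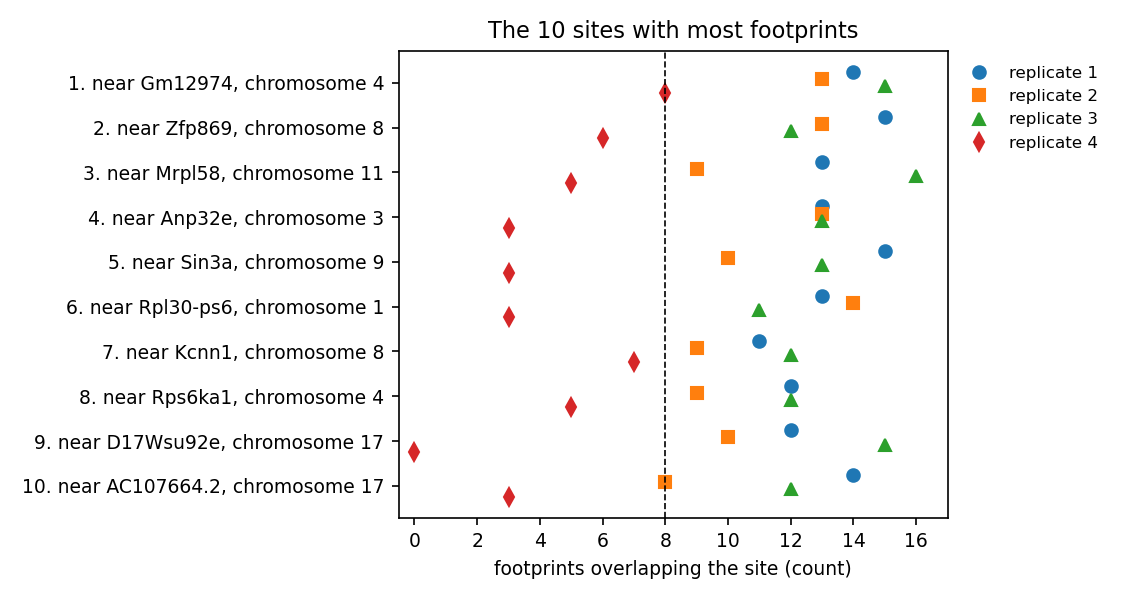
Footprints overlapping each of the 10 members with the highest mean count, 1 point per library; sites are named by the nearest annotated start, and the dashed line marks 8 footprints. Replicates 1 to 3 lie at 8 to 16 and replicate 4 at 0 to 8.

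Over all 126 members the mean count was 9.01, 7.93, 8.75 and 1.96 footprints in replicates 1 to 4, against 2.73, 2.47, 2.16 and 0.194 over all distal sites. The lowest and highest counts were 2 and 15, 3 and 14, 2 and 16, and 0 and 8. A count of 8 or more was found at 1.03%, 0.632%, 0.906% and 0.0139% of distal sites in replicates 1 to 4, that is at 222, 136, 195 and 3 sites. Replicates 1 and 3 alone brought in 41 members, replicates 1, 2 and 3 together 37, replicates 1 and 2 alone 24, and replicates 2 and 3 alone 22. Replicate 4 reached 8 at 2 members. Leaving out replicate 1, 2 or 3, with a peak needed in each of the others, left 48, 66 or 42 members, and leaving out replicate 4 left 115. Replicates 1 and 2 only gave 35 members. The threshold cut through a falling tail: 75 members had 8 as their second highest count and 117 sites just outside had 7. The sites just outside had a median width of 460 bp and relative height of 0.755, and those just inside 480 bp and 1.23.

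Members were wide and tall sites. Their median width was 520 bp (range 260 to 980), against 220 bp over distal sites, and the median member lay at the 95.6th percentile of distal width. Their median relative height was 1.25 (range 0.160 to 4.23), against 0.260, at the 95.7th percentile of height. By library the members' median relative height was 1.29, 1.14, 1.19 and 1.16, which is near the same in all 4 libraries. In steps of height the members' medians were 583, 604, 349 and 66.0, so replicate 4 rests on the lowest heights. Of the members 103 (81.7%) were called in all 4 libraries, against 26.3% of distal sites. The share was 67.1% in members paired on height with the comparison sites described below, and higher, at 74.3%, in those comparison sites. A peak was present at all 126 members in replicates 1, 2 and 3 and at 103 in replicate 4.

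Members were most frequent among sites that were both wide and tall. No distal site under 200 bp was a member, 0.747% of those of 300 to 400 bp were, and 20 of 100 sites (20%) of 800 bp and wider were. Among the 2608 distal sites of 400 bp or wider, 102 were members, and in 4 classes of 652 sites by relative height, from lowest to highest, 0, 2, 11 and 89 were. Members of 200 to 300 bp, of which there were 4, had a median relative height of 2.74, and those of 800 bp and wider 0.652. Footprints per 100 bp were nevertheless fewer in wide sites: over all distal sites of replicate 1 they went from 1.34 under 200 bp to 0.689 at 800 bp and wider. Across the 21535 distal sites Spearman's rho of footprint count with height was 0.524, 0.611, 0.622 and 0.685 in replicates 1 to 4, and with width 0.131, 0.0063, 0.145 and -0.0763. Sites of a library share its depth, and these are descriptions. Some members were several peaks joined by merging: 32, 55, 29 and 19 of the 126 members held 2 or more peaks of replicates 1 to 4. This was so for 2.36%, 3.37%, 2.12% and 0.418% of all distal sites, and for none of the comparison sites described below.

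**Figure D2:**
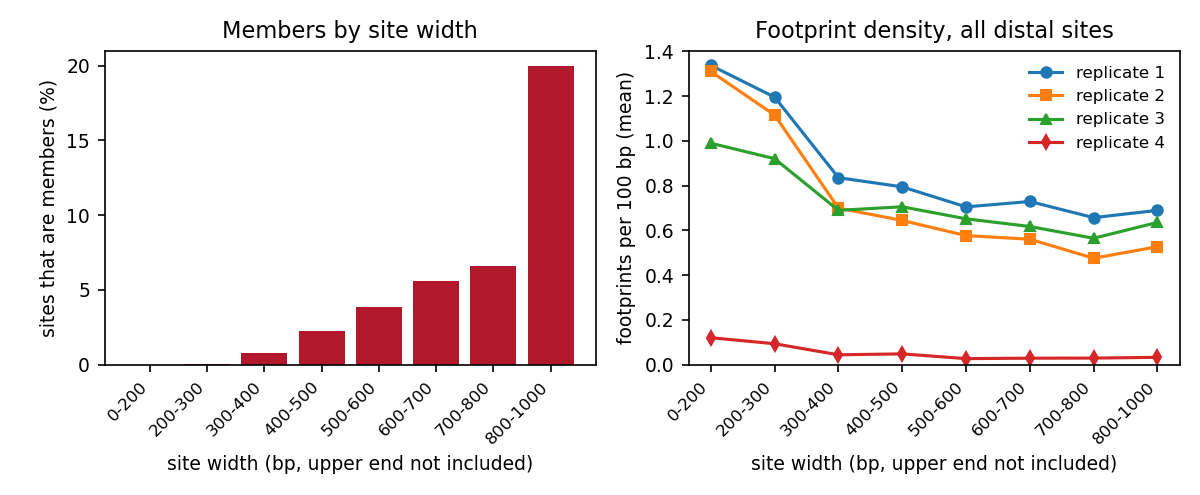
Left, the share of distal sites in each band of width that were members; right, footprints per 100 bp of site over all distal sites, 1 line per library. The share of members goes from 0% under 200 bp to 20% at 800 bp and wider, while the density of footprints is highest in narrow sites.

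Members were then set beside comparison sites, distal sites of equal height with at most 2 footprints in every library. Each member, from the tallest down, took the unused such site nearest in mean relative height within 10%, and 70 members found a partner. Partners were narrow, with a median width of 200 bp (range 120 to 460) against 620 bp for the members they were paired with. The 56 members with no partner were the tall ones, with a median relative height of 2.12, whereas the 6156 distal sites with few footprints had a median of 0.150. To test counts that had not chosen the sites, members and partners were chosen again for each library from the footprints and heights of the 3 other libraries. The bounds of the sites, and their calls in at least 3 of 4 libraries, still came from the peaks of all 4. The held-out library then had 8.65 footprints per member and 2.44 per comparison site in replicate 1 (34 pairs). The values were 7.18 and 2.89 in replicate 2 (55 pairs), 7.77 and 2.44 in replicate 3 (43 pairs) and 1.03 and 0.459 in replicate 4 (74 pairs). Members had more held-out footprints in 4 of 4 libraries, by 4.10 ± 2.48 (SD, n = 4; exact sign-flip permutation test over libraries, two-sided, p = 0.125). That is the smallest p that 4 libraries allow, so the design cannot reach 0.05.

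Per unit length, members and comparison sites differed by less than the spread between libraries. Held-out footprints per 100 bp were 1.41 in members and 1.32 in comparison sites in replicate 1. They were 1.26 and 1.42 in replicate 2, 1.34 and 1.19 in replicate 3, and 0.197 and 0.253 in replicate 4. Members were higher in 2 of 4 libraries, by 0.0047 ± 0.142 (SD, n = 4; exact sign-flip permutation, two-sided, p = 1). This depended on how the sets were drawn. With comparison sites that held no footprint in the other libraries (at least 7 pairs), the density was 0.677 in members and 0.286 in comparison sites, higher in 4 of 4 libraries (exact permutation p = 0.125). With members of 10 or more footprints (at least 5 pairs) the difference was 0.173, higher in 3 of 4 libraries (exact permutation p = 0.375). With partners matched on width as well, only 18 members found one, and the held-out sets had 7, 15, 10 and 18 pairs. In those pairs the mean difference was 2.41 footprints per site (exact permutation p = 0.25) and 0.420 per 100 bp (exact permutation p = 0.25), with members higher in 3 of 4 libraries for both. From replicates 1 and 2 only, members had 6.31 held-out footprints and comparison sites 2.67, and 1.49 and 1.43 per 100 bp.

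The cut-rate list, which holds intervals of significant cleavage and comes before footprints in the authors' processing, was measured next. Intervals covered 99.9% of the bases of the 70 paired members and 99.9% of comparison bases in replicate 1. They covered 98.2% and 99.6% in replicate 2, 99.6% and 97.1% in replicate 3, and 42.6% and 60.4% in replicate 4. The difference was -4.15 ± 9.22 percentage points (SD, n = 4; exact sign-flip permutation, two-sided, p = 0.625), and members were higher in 1 of 4 libraries. Without replicate 4 it was 0.0678 percentage points, from replicates 1 and 2 only -0.0989, and with sites chosen without the footprints and heights of the library measured -0.625. The list was near its ceiling in replicates 1 to 3, so it could show little difference there.

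**Figure D3:**
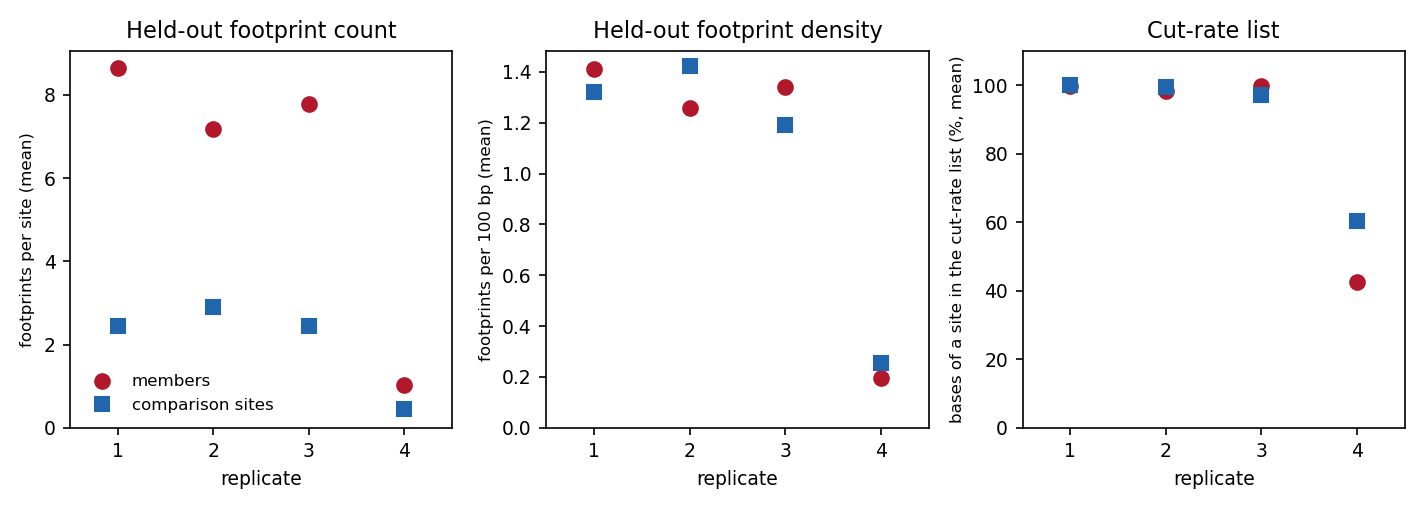
Held-out footprints per site, held-out footprints per 100 bp, and the percentage of bases in the cut-rate list, as means over paired members (circles) and comparison sites (squares) in each library. Circles lie above squares for the count in all 4 replicates and on both sides for the density and the cut-rate share.

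The footprints inside members were about as wide as those of distal sites at large. Their median width was 11, 12, 10 and 9 bp in replicates 1 to 4, against 10, 11, 9 and 9 bp over all distal sites. Those of comparison sites were wider than those of members in replicates 1 to 3, at 19, 22, 14 and 9 bp. In paired members they were 9, 10, 9 and 8 bp. In replicate 1, footprints of 20 bp or more made up 18.8% of those of members and 22.5% of those of all distal sites. The share was 8.96% in paired members and 49.2% in comparison sites. Averaged over members, footprints covered 25.1%, 24.6%, 22.8% and 4.79% of a site. The median distance between the middles of neighbouring footprints was 43.5, 46.0, 44.5 and 52.0 bp in members, and 49.5, 50.5, 50.5 and 42.5 bp in other distal sites. Within members the footprints of all libraries merged into 1625 positions, a median of 13 per member (range 6 to 22). Of these, 741 (45.6%) were found in 1 library, 356 in 2, 379 in 3 and 149 (9.17%) in all 4. A member had a median of 7 positions (range 3 to 15) found in at least 2 libraries, against a median count of 9, 8 and 8 in replicates 1 to 3. Of replicate 1's footprints in members 64.2% overlapped one of replicate 2 and 61.6% one of replicate 3, while footprints of replicate 2 covered 21.5% of the summed bases of all members. Footprints of replicate 3 covered 19.8%. In other distal sites the overlaps were 59.3% and 44.3%, at a lower coverage of 14.5% and 10.5%. Members were chosen by these same footprint lists, so the overlaps are a description. Replicate 4, with few footprints, had 76.5%, 79.8% and 75.3% of them in common with replicates 1, 2 and 3. Its shares in other distal sites were near the same, at 77.3%, 78.7% and 73.3%.

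Members were CpG-rich more often than other distal sites. In the central 200 bp, 52 of 126 members (41.3%) were CpG-rich, defined by an observed over expected CpG ratio above 0.6 and a GC content above 50%. The share was 6.49% over all distal sites, 18.6% in paired members and 8.57% in their comparison sites. It was 69.6% of the 56 members with no partner, so it was highest among the tallest. Median GC content was 55.5% in members and 51% in distal sites, and a member had a median of 7 CpGs in the window against 3. Between sites paired on height these medians were close: GC content was 51.25% in paired members and 52.5% in comparison sites, with 4.5 and 4 CpGs. No member window consisted mostly of repeat sequence, which was so for 6.93% of distal sites. By second highest footprint count, the CpG-rich share was 4.78% at 0 to 2, 6.91% at 3 to 4, 17.5% at 5 to 7 and 41.3% at 8 or more. It was 42.9% of the 35 members from replicates 1 and 2 only.

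In position, 78 members (61.9%) were intergenic, 39 (31.0%) intronic and 9 (7.14%) exonic, against 44.2%, 48.7% and 7.17% of distal sites. The median distance to the nearest GENCODE start was 7786.5 bp, and 32 members (25.4%) lay within 2.5 kb of one, against 16.3% of distal sites. The share within 2.5 kb was 22.9% both in paired members and in their comparison sites. RefSeq holds starts that GENCODE release 21 lacks, and 27 members (21.4%) lay within 1 kb of a RefSeq transcript start, against 5.16% of distal sites. Among paired members the count was 14 of 70 (20%) and among their comparison sites 2 of 70 (2.86%). Such members are distal by the rule and near a start by the other annotation. Of the 10 members with most footprints, those nearest Zfp869, Sin3a and Kcnn1 hold a RefSeq start of that same gene inside the site. Another example is the member beside the site with most footprints, 545 bp from the RefSeq start of Gm34296. The site with most lies 1225 bp from that start.

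Motif words were searched on both strands of the central 200 bp, for 30 families. This window, also used for CpG content, is as long as the median comparison site (200 bp). It covers only the middle of the median member (520 bp), so the shares are of unlike parts of the sites. Words of different families can overlap or share letters, as ETS words do with the ETS-IRF composite. The SP word CCCCGCCC was in 16 members (12.7%), 11.4% of paired members, 10% of comparison sites and 2.89% of distal sites. The NRF1 word GCGCATGC was in 5 members (3.97%) and 0.822% of distal sites, and the CRE word TGACGTCA in 3 members (2.38%) and 0.599%. Among CpG-rich windows alone, the SP word was in 25% of 52 members and 13.2% of 1346 other distal sites, and the NRF1 word in 9.62% and 4.09%. Those 52 members were also taller than the 1346 other sites, at a median relative height of 2.14 against 0.422. They were wider as well, at a median of 420 against 240 bp. The NRF1 share rests on 5 members. The part of CpG content in these shares was not tested.

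The CTCF consensus went the other way. It was in 1 of 126 members (0.794%), in none of the 70 paired members and in 11 of 70 comparison sites (15.7%), against 9.88% of distal sites. With at most 1 mismatch, a setting chosen after the sequences were seen, it was in 6 members (4.76%), 1 paired member (1.43%), 33 comparison sites (47.1%) and 34.5% of distal sites. By second highest footprint count the share with the exact consensus was 9.15%, 11.8%, 5.23% and 0.794% from the lowest class to members. Width moved with this: in the 18 comparison sites matched on width as well, the exact consensus was found in none.

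Words of T cell factors were found in members in shares near or below those of distal sites. ETS words (AGGAAGT and CGGAAGT) were in 15.9% of members, 20% of paired members, 10% of comparison sites and 14.4% of distal sites. RUNX words (TGTGGTT and TGCGGTT) were in 8.73% of members, 7.14% of comparison sites and 11.0% of distal sites. TCF7/LEF1 words (CTTTGAA and CTTTGAT) were in 5.56%, 2.86% and 8.27%. In paired members relative to comparison sites the IRF or ETS-IRF composite was highest, in 7 against 2 of 70. KLF (CCACACCC) followed with 3 against 1, and ETS, TCF7/LEF1, Ikaros (TGGGAAT) and NFAT (TGGAAAA) were tied at a ratio of 2. Lowest, at 0 of 70 paired members, were CTCF, NF-kB, STAT, GATA, NRF1 and MEF2. Apart from CTCF and NF-kB each of those was in 1 comparison site, so these ratios rest on few sites. On average a member window held words of 1.45 families and a distal window 1.68.

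**Figure D4:**
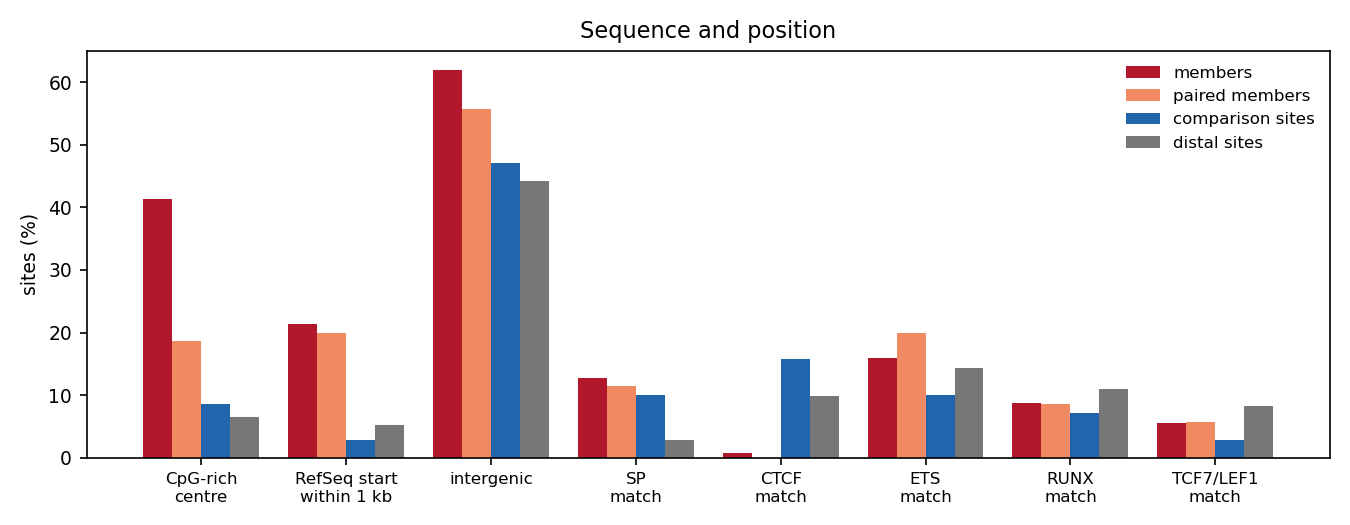
Percentage of members, paired members, comparison sites and all distal sites with a CpG-rich central 200 bp, a RefSeq start within 1 kb, an intergenic position, or a motif word in the central 200 bp. Members lead in CpG-rich windows (41.3%) and are lowest but for paired members in CTCF matches (0.794%).

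Within the members, words were then counted in footprints and between them, which compares bases of the same sites; a match was in a footprint when its middle base was. The NRF1 word was 19.1 to 34.5 times as frequent per kb in footprints as between them in replicates 1 to 3. The SP word was 9.19 to 21 times and the CRE word 5.41 to 21.9 times as frequent in footprints. In other distal sites the same ratios were also above 1, at 7.28 to 9.56 for NRF1, 3.45 to 5.44 for SP and 4.23 to 6.91 for CRE. Summed over replicates 1 to 3, 1 place can count more than once. In members, 49 NRF1 matches were in footprints and 8 between, 148 SP matches in and 38 between, and 16 CRE matches in and 5 between. The exact CTCF consensus had 11 in and 1 between. In other distal sites its ratio was 27.3 to 72.4. The EBF word (TCCCNNGGG) had a ratio of 2.92 to 4.37 and the MYC E-box (CACGTG) 1.82 to 3.32. RUNX words had a ratio of 1.08 to 2.60, TCF7/LEF1 0.607 to 2.20 and ETS 0.911 to 1.98, so the last 2 were on both sides of 1. AP-1 (TGANTCA) was at 0.188 to 0.405 and MYB (AACNGNC) at 0.517 to 0.738, below 1 in every one of these libraries. E protein words (CAGCTG and CAGGTG) were at 0.725 to 0.981, also below 1 in each. The AP-1 ratio rests on few matches, 4 in footprints and 56 between when summed likewise. In other distal sites AP-1 was at 0.445 to 0.510 and MYB at 0.740 to 0.798. E protein words were above 1 there, at 1.61 to 1.83. GC content also differed between footprint bases and the bases between them. It was 64.1% to 67.9% in footprint bases of members and 53.1% to 55.3% between them over the 4 libraries, and 57% to 60.2% and 49.8% to 51% in other distal sites. The part of base composition and of the enzyme's own preference in these ratios was not tested.

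**Figure D5:**
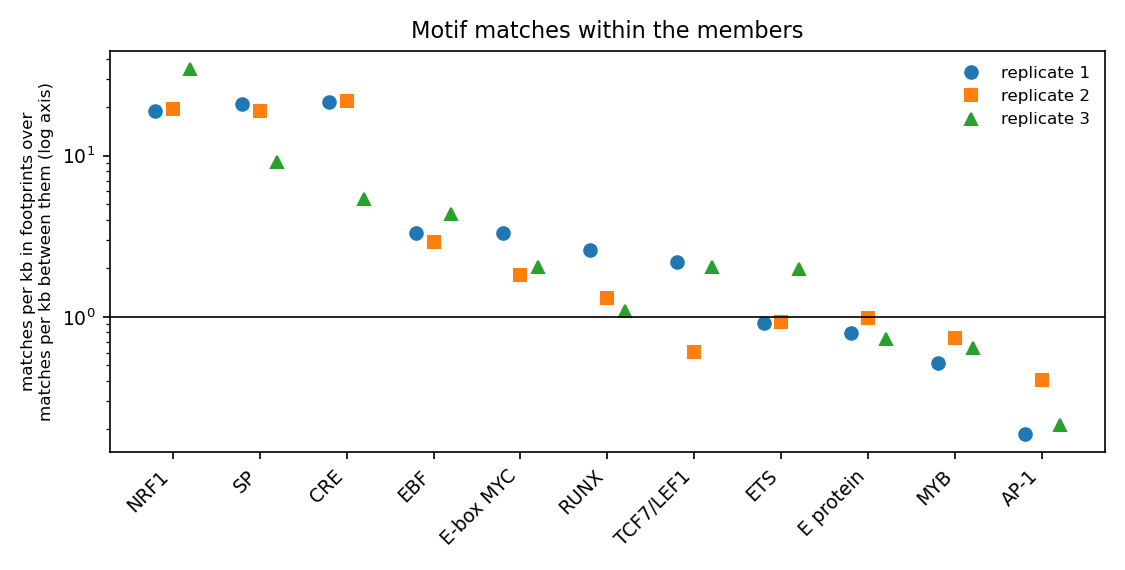
Matches of selected motif families, without CTCF, per kb of footprint over matches per kb between footprints, within the 126 members. Each library of replicates 1 to 3 has 1 point (log axis, with a line at equal frequency). NRF1, SP and CRE lie above 5 in all 3 libraries and E protein, AP-1 and MYB below 1.

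Of the members, 3 lay at genes of the T cell lists. Each distal site was given to the protein-coding gene with the nearest start within 100 kb, and 121 genes in 7 lists were looked up. Of 111 distal sites at genes for T lineage transcription factors 2 were members, at Runx3 and Lef1, and of 161 at naive and quiescent T cell genes 1 was, at Bach2. No member lay at the genes of T cell receptor signalling (67 distal sites), effector function and activation (71), B cells (22), myeloid cells (9) or non-blood tissues (17). Over all distal sites 0.585% were members, against 1.80% and 0.621% in the first 2 lists. Those shares rest on 2 members and 1 member, too few to compare with that of all distal sites. Runx3, which directs CD8 lineage choice, had its member 39912 bp upstream at chr4:135079921-135080740, with 10, 8, 9 and 2 footprints and relative heights of 1.22, 1.08, 1.08 and 0.877. Lef1, a partner of TCF7 in T cell development, had its member 90611 bp upstream at chr3:131019161-131019860. It held 11, 7, 9 and 0 footprints. The member 74244 bp upstream of Bach2, a repressor that holds T cells in the naive state, held 8, 8, 8 and 0 footprints (chr4:32164001-32164560). Its relative heights were 0.575, 0.521 and 0.567 in replicates 1 to 3, and it had no peak in replicate 4. All 3 were highest in replicate 1 or level with it, and lowest in replicate 4. The Bach2 window holds the RUNX word AACCACA on the plus strand at base 202, with 3 of its 7 bases in capitals.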

How the data were processed

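DNase-seq libraries of 4 replicates were deposited with, for each, 2 peak lists of different length, footprints and cut-rate intervals on mm10 (GRCm38), per the labels. Peaks carry a deposited signal, read as a height scaled to library depth. Every deposited footprint has 0.01 as its p-value or q-value, and deposited cut-rate intervals have p-values or q-values below 0.05. Footprints were derived by the authors from the cut-rate list and the filtered alignment, per the labels. Aligner and caller settings were not given in the sources used here.

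Members, gene lists and motif words were chosen with earlier results of these data known. Sites were merged by 1 bp overlap, footprints counted by 1 bp overlap, and heights divided by the library's median at sites called in all 4, with 0 where no peak was called. Comparison sites were paired on mean relative height within 10%. Tests were exact sign-flip permutations over 4 libraries, and the functions were tested on simulated data. Counts and shares over sites are descriptions, with no counting interval. Named sites were the 10 members with the highest mean count and up to 4 members per gene list. Motif families named were the 5 highest and 3 lowest in the paired ratio, with ETS, RUNX, TCF7/LEF1 and CTCF. SP, NRF1, CRE and the other families were named after their values were seen. Sequences and additional starts came from RefSeq (GRCm38), and exons from both annotations. Python 3.11.15, numpy 2.4.6, scipy 1.17.1 and pandas 2.3.3 were used. Alternatives were other thresholds, libraries, pairings and windows. Sites on X and Y were not used.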

Additional observations from a re-analysis of the deposited data

Results flagged for a closer look

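In 6 of 29 values compared over the 4 libraries the lowest library stood apart from the other 3, by a gap above Dixon's 95% critical value of the group's range. Chance flags about 1 group in 20, and the values are not independent. Replicate 4 was the low library in all 6. It had 1.96 footprints per member against 7.93 to 9.01 in the others, and footprints covered on average 4.79% of a member against 22.8% to 25.1%. Held-out footprints per 100 bp of member were 0.197 against 1.26 to 1.41. The cut-rate list covered 42.6% of the bases of paired members against 98.2% to 99.9%, and 60.4% of those of comparison sites against 97.1% to 99.9%. At the Anp32e site replicate 4 had 3 footprints and each of the others 13. The held-out count of members was not among the 6, and neither was relative height.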

How the results depend on the processing

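The difference in held-out footprint count was positive under all 14 alternatives that gave a value, with p never under 0.125 (exact permutation), and without a replicate it was 5.47 to 6.32, the latter with a library that had only 1 pair. It and the density gave no value with 3 files needed or without replicate 1 or 2, where a library had no pair. The difference in held-out density turned negative with the shorter peak lists (-0.0414 per 100 bp), over 2.5 kb from a start (-0.0161), with comparison sites of at most 4 footprints (-0.115) and with height within 5% (-0.0110). It was 0.391, higher in 4 of 4 libraries, with comparison sites of no footprint. The cut-rate difference turned positive with partners matched on width (0.0307 percentage points) and with height in 1 replicate (2.02), and without a replicate it ran from -5.55 to 0.0678. Members numbered 513 at 6 or more footprints, 28 at 10 or more, 38 with 3 files needed, 35 from replicates 1 and 2 only, and 42 to 115 without a replicate. Two-library choice, made after seeing the data, gave CTCF shares of 0% in members and 6.06% in comparison sites, and an SP share of 3.03% in comparison sites. The CTCF shares were 4.76% and 47.1% with 1 mismatch, also chosen after seeing the data. In the central 100 bp the SP share of members was 2.38%. In width-matched comparison sites the CTCF and SP shares were 0%. The cause of these shifts was not tested. No paired analysis was possible because the labels give 1 group, so no replicate number is shared between groups; the tests above compare sets of sites within each library. Replicate 4 had the fewest footprints and the lowest depth read from height steps; the part of depth in its values was not tested.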

Other observations

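The 52 CpG-rich members and the other 74 differed in size. Median width was 420 bp in the CpG-rich members and 580 bp in the others, and median relative height was 2.14 and 0.795. Of the CpG-rich members 51 (98.1%) were called in all 4 libraries, and of the others 52 (70.3%). Distal sites that were not members split the same way, at 50.5% of CpG-rich sites and 24.3% of the rest. Mean footprint counts were 9.10 and 8.95 in replicate 1, 8.37 and 7.62 in replicate 2, and 9.21 and 8.43 in replicate 3. In replicate 4 they were 3.56 and 0.838. The EBF word was in 7 CpG-rich members and in none of the others, and the IRF or ETS-IRF composite in none and 7. These contrasts rest on few sites. In distal sites that were not members the EBF word was in 4.38% of CpG-rich sites and 3.29% of the rest. The composite was in 3.71% and 4.94% of them. Of the CpG-rich members 14 (26.9%) lay within 1 kb of a RefSeq start, and of the others 13 (17.6%). The shares were 13.7% and 4.48% in distal sites that were not members.

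Some members were neighbours: 7 pairs lay within 10 kb of each other. Members near Maml3, a coactivator gene of the Notch pathway, were 60 bp apart, and those near Kdm6b, a histone demethylase gene, 640 bp apart. Near Ptma a further pair lay 2420 bp apart, with mean counts of 7.25 and 8.50 footprints over the 4 libraries. The pair near Klrb1c, a receptor gene of natural killer cells, lay 3200 bp apart with means of 7 and 6.75. Pairs at Cfap126 and Vps37b lay 7900 and 5720 bp apart. Each of these counts as a separate member.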
